A study of Mus musculus with 3 samples.

Results

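The genes that build, hold together and cut the cardiac jelly were followed through 3 stages of the mouse heart ventricle. The set holds 10 genes, chosen by name: the hyaluronan synthases Has1, Has2 and Has3, the proteoglycan gene Vcan (versican), the link protein gene Hapln1, the hyaluronan receptor gene Cd44, the metalloprotease genes Adamts1, Adamts5 and Adamts9, and the hyaluronidase gene Hyal2. Each name led to 1 locus of the deposited annotation, so the set is 10 of the 48626 loci in the expression table. All ventricles came from C57BL/6 mice, with no genetic change or treatment given for any group, at E10.5 and E13.5 (days of embryonic life) or at 8 weeks of age (adult). Where 3 values follow a gene, they stand in order of age, from the youngest library to the adult. Total RNA was sequenced with a stranded kit, with 1 library per stage, and the number of animals behind a library is not given in the sources used here. With 1 library per stage there is no replicate error, so no difference between stages was tested and every difference below is one between 2 libraries.

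Cardiac jelly is the matrix between the myocardium and the endocardium of the embryonic heart. Its scaffold is hyaluronan, a long sugar chain spun out through the cell membrane by hyaluronan synthases. Versican binds hyaluronan at one end, carries chondroitin sulphate chains on its core, and is fixed to hyaluronan by the link protein. ADAMTS proteases cut the versican core, and hyaluronidases cut the sugar chain. In the embryo this matrix fills the trabecular spaces and the endocardial cushions, and it is cleared as the ventricular wall compacts and the valves take shape. Mouse embryos without Has2, or without versican, are known to form no proper cushions.

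Values are FPKM, fragments counted per kb of exon and scaled to the mapped total of the library, which can be compared between genes because they are scaled to length. Changes are differences of log2(FPKM + 1), and a change of 1 or more in either direction was counted. That scale understates the change of low genes. The counts were set beside the 12569 mRNA loci (loci with a transcript matching a RefSeq mRNA) that reached 1 FPKM in at least 1 library. The deposited scaling left a shift, since the median change of those loci was 0.17 between the embryonic libraries, -0.50 from E13.5 to the adult and -0.40 over the whole span. With median-of-ratios scaling these medians were 0.04, -0.03 and -0.06. Of the 10 genes, 9 reached 1 FPKM in some library, and Has3 did not. Has1 reached it in the adult alone, so its place among the 9 already rests on its adult value.

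From E10.5 to E13.5, the matrix genes Vcan and Hapln1 were the 2 of 9 genes lower by 1 or more, where 4.85% of mRNA loci were that much lower. None of the 9 was higher by 1 or more, against 5.89% of mRNA loci. From E13.5 to the adult, 5 of 9 were lower (Has2, Vcan, Hapln1, Adamts1 and Hyal2), where 32.1% of mRNA loci were lower, and 0 of 9 were higher, where 13.0% of loci were. Over the whole span from E10.5, 4 of 9 were lower in the adult (Has2, Vcan, Hapln1 and Hyal2), against 27.3% of mRNA loci, and Adamts5 alone was higher, against 14.8%. At a limit of 2, the lower genes were Hapln1 between the embryonic libraries (0.247% of mRNA loci), Has2, Hapln1 and Hyal2 after E13.5 (9.88%) and Has2, Vcan and Hapln1 over the whole span (8.10%), and no gene was higher, against 0.851%, 4.41% and 5.59% of mRNA loci. The median change of the 9 genes was 0.05, -1.32 and -0.59 in these 3 comparisons.

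**Figure D1:**
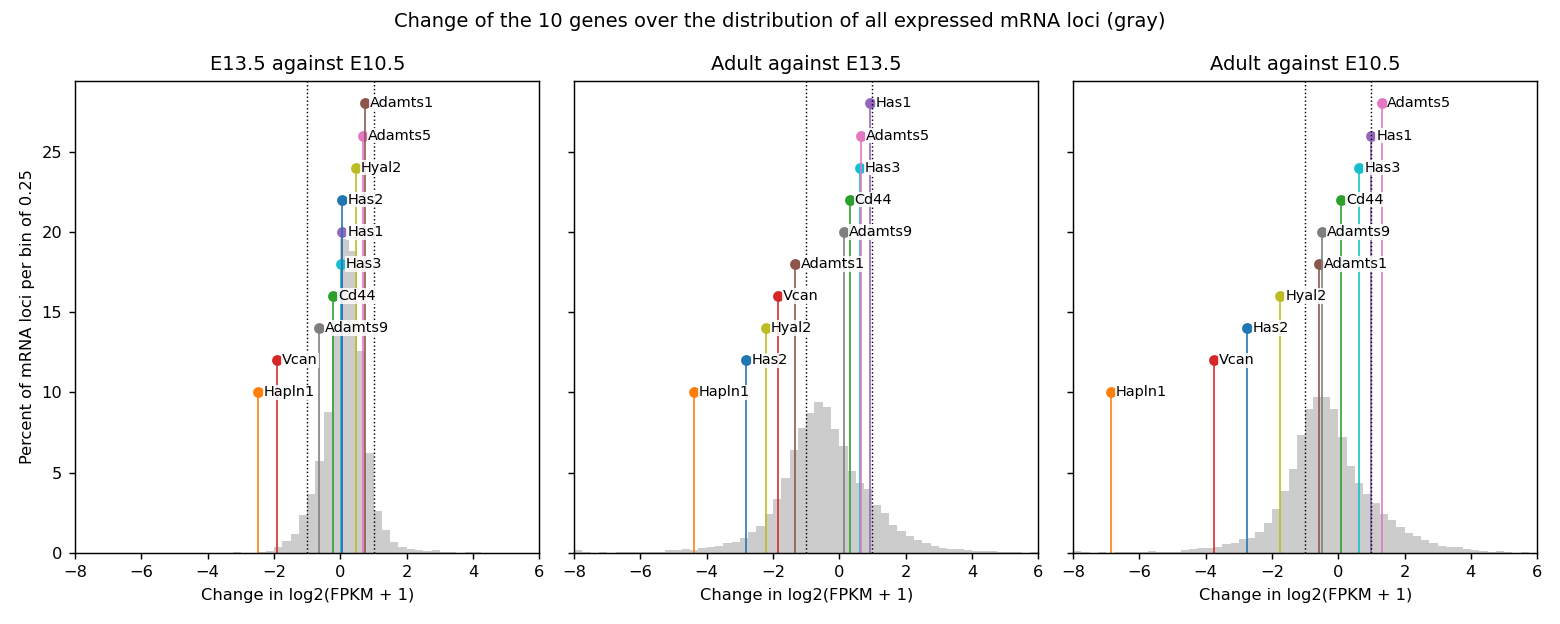
Change of each of the 10 genes in log2(FPKM + 1) (horizontal axes, colored points) over the percent of the 12569 mRNA loci in bins of 0.25 (gray) for the 3 comparisons, with dotted lines at -1 and 1. The heights of the points serve the labels alone. Hapln1 and Vcan lie at the low edge of the gray distribution between the embryonic libraries, at -2.47 and -1.90.

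**Figure D2:**
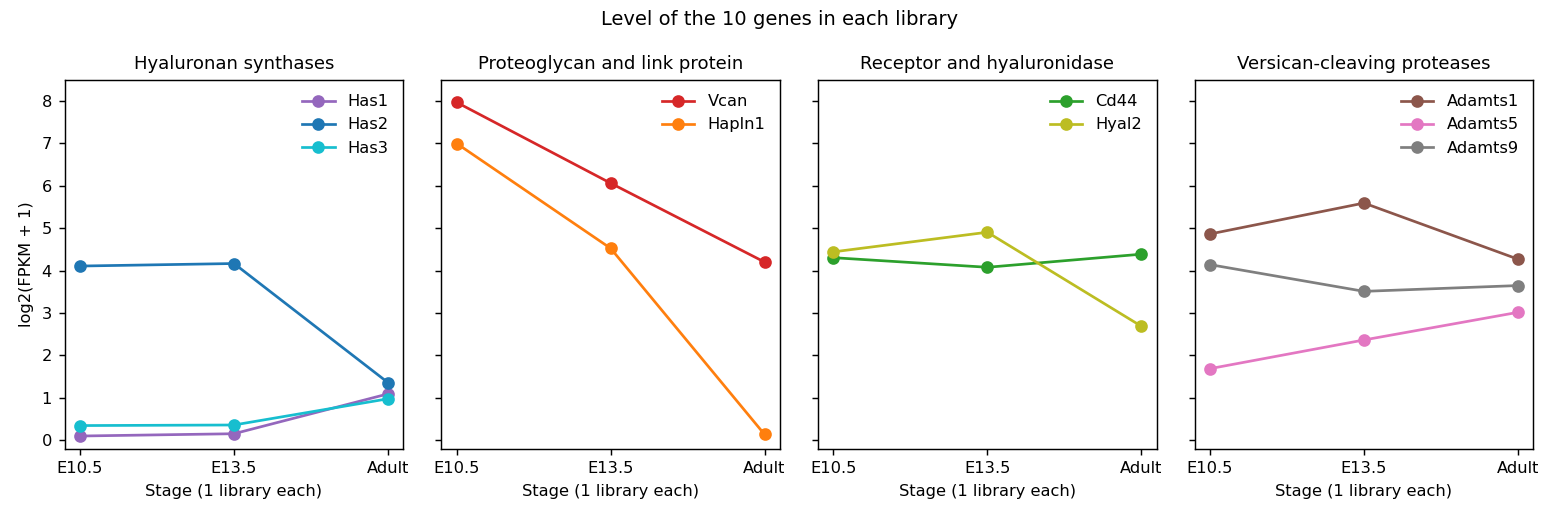
Level of each gene as log2(FPKM + 1) on the vertical axis against stage on the horizontal axis, with 1 point per library and genes grouped by role. Vcan and Hapln1 step down at both intervals, Has2 is level in both embryonic libraries (16.2 and 16.97 FPKM) and low in the adult (1.57 FPKM), and Cd44 lies between 15.9 and 19.9 FPKM as deposited.

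Synthase RNA was almost entirely that of Has2 in the embryo. Has2 (chromosome 15, 56664714 to 56694604, minus strand, with all positions in mm10), the synthase of the embryonic heart, was at 16.2, 16.97 and 1.57 FPKM. Both embryonic values lay close together and the adult library stood 10.3-fold below E10.5, a change of -2.75. The small difference between the embryonic libraries (0.06) changed sign with each of 3 other scalings, while the lower adult value kept its direction under all of them.

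Has1 (chromosome 17, 17843326 to 17855188) was at 0.0726, 0.113 and 1.13 FPKM. The E10.5 value rests on about 2.17 fragments by the estimate of depth given with the methods, with an approximate 95% Poisson interval of 0.00993 to 0.251 FPKM, and the adult value on about 32.3 fragments (0.777 to 1.599 FPKM). Such intervals cover counting error alone. The intervals of the embryonic and adult values did not overlap, and the change of 0.99 lay just under the limit of 1. In the 4 alternatives of scaling and pseudocount it was 1.05 to 2.84, past the limit in each. Has3 (chromosome 8, 106870242 to 106882902) was at 0.272, 0.284 and 0.970 FPKM, on at most about 78.1 fragments. Has3 was thus also highest in the adult, below 1 FPKM in all 3 libraries.

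Within a library, shares do not depend on how that library was scaled. Has2 made up 97.9% of the summed FPKM of the 3 synthase genes at E10.5 and 97.7% at E13.5. In the adult its share was 42.7%, with 30.9% for Has1 and 26.4% for Has3. The adult sum was small, at 3.68 FPKM against embryonic sums of 16.6 and 17.4 FPKM, so the even split of the adult was one among low levels. Exons of Has3 overlap 1226 bases of Chtf8 exons on the other strand, and Chtf8 was at 51.4, 62.04 and 21.8 FPKM. Has1 exons share 898 bases with a non-coding locus that includes Ncrna00085. The library kit keeps strand, but whether the quantification used it is not stated.

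The proteoglycan and its link protein were the most abundant of the 10 genes at E10.5 and had the lowest changes from there to the adult. Vcan (chromosome 13, 89655149 to 89743403, minus strand) was at 248.97, 65.8 and 17.4 FPKM. Each library stood below the one before it, 3.78-fold at each of both steps, with changes of -1.90 and -1.86. The equal size of the steps belongs to the deposited scaling, since the changes were -2.06 and -1.31 with median-of-ratios scaling and -2.33 and -1.03 with columns brought to 1 common sum. Its level was above 98.9%, 91.4% and 76.3% of expressed mRNA loci in the 3 libraries. Only 45 of the 12569 mRNA loci had a lower change than Vcan between the embryonic libraries.

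Hapln1 (chromosome 13, 89540636 to 89611832, plus strand), whose protein fixes versican to hyaluronan, was at 127, 22.02 and 0.101 FPKM. The E13.5 library was 5.75-fold below E10.5, a change of -2.47, and 11 mRNA loci had a lower change. The adult level lay below all but 2.26% of expressed mRNA loci, and the adult was 1258-fold below E10.5 (change -6.86). That fold rests on about 6.93 fragments in the adult, whose approximate counting interval puts it between 608 and 3148. The ratio of Hapln1 to Vcan, both per length, was 0.509, 0.335 and 0.00579. Hapln1 therefore differed more than Vcan between these libraries, and the adult ventricle kept Vcan at a level comparable with Cd44 and Adamts1 and had nearly no Hapln1. The ratio of Vcan to Has2 was 15.3, 3.88 and 11.1, since Vcan was already lower at E13.5 when Has2 was not.

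Both genes lie side by side on chromosome 13, transcribed toward each other, with 43316 bp between their ends. Their promoters are shown because the genes are neighbors and were lower together at both steps. The sequences are those of RefSeq on GRCm38.p6 (the assembly of mm10), from 250 bases before to 50 bases after the start, read 5′ to 3′ on the strand of the gene. Capitals mark GGGCGG, or its reverse complement.
Hapln1 promoter, plus strand, chr13:89540386-89540685: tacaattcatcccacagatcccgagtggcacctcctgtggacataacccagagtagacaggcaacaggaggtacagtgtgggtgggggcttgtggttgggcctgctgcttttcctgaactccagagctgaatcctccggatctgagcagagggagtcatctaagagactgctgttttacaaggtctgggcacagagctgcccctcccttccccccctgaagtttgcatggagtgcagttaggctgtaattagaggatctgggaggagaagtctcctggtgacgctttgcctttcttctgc
Vcan promoter, minus strand, chr13:89742463-89742762: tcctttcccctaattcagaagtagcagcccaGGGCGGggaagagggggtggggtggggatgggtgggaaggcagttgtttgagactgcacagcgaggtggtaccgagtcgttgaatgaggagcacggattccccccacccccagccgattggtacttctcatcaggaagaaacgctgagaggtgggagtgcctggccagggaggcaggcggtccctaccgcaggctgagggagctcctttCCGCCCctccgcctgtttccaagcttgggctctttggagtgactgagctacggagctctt
The Vcan window has 2 GGGCGG sequences, at -219 to -214 and -10 to -5 from the start, and the Hapln1 window has none, where 35.7% of the 32851 promoters in the table hold at least 1. TATAAA (13.6% of promoters), GATAAG (7.44%) and the MEF2 site (3.19%), which can itself contain TATAAA, occur in neither window on either strand. CANNTG occurs 1 time in the Vcan window and not in that of Hapln1, against 72.3% of promoters with at least 1. GC content was 61% for Vcan and 54.3% for Hapln1, with a median of 52.7% over all promoters. No short sequence among these 5 was shared by both windows.

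The transcripts assembled at Vcan were set beside the known forms of versican. Its forms differ by 2 large exons that code for the parts of the core carrying chondroitin sulphate, GAG-alpha (2880 nt, 89702918 to 89705797) and GAG-beta (5217 nt, 89688285 to 89693501). V0 has both, V1 has GAG-beta, V2 has GAG-alpha and V3 has neither. The locus holds 10 transcripts, of which 5 are RefSeq models carried into the merged annotation and 5 were assembled from the reads. Of the 5 assembled transcripts, 2 have the V0 structure, 1 has the V1 structure and 2 cover part of the locus. No assembled transcript had the V2 or V3 structure from end to end, and 1 partial transcript holds GAG-alpha in its last exon, which runs past it. The RefSeq models include V2 and V3, and a transcript equal to a model could be held under its RefSeq name. This absence therefore does not show that V2 or V3 was not made. An assembled V0 and the V1 transcript begin 891 bp upstream of the RefSeq start with an additional exon. The annotation is merged over the libraries and FPKM is given per locus, so these forms cannot be placed at a stage.

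**Figure D3:**
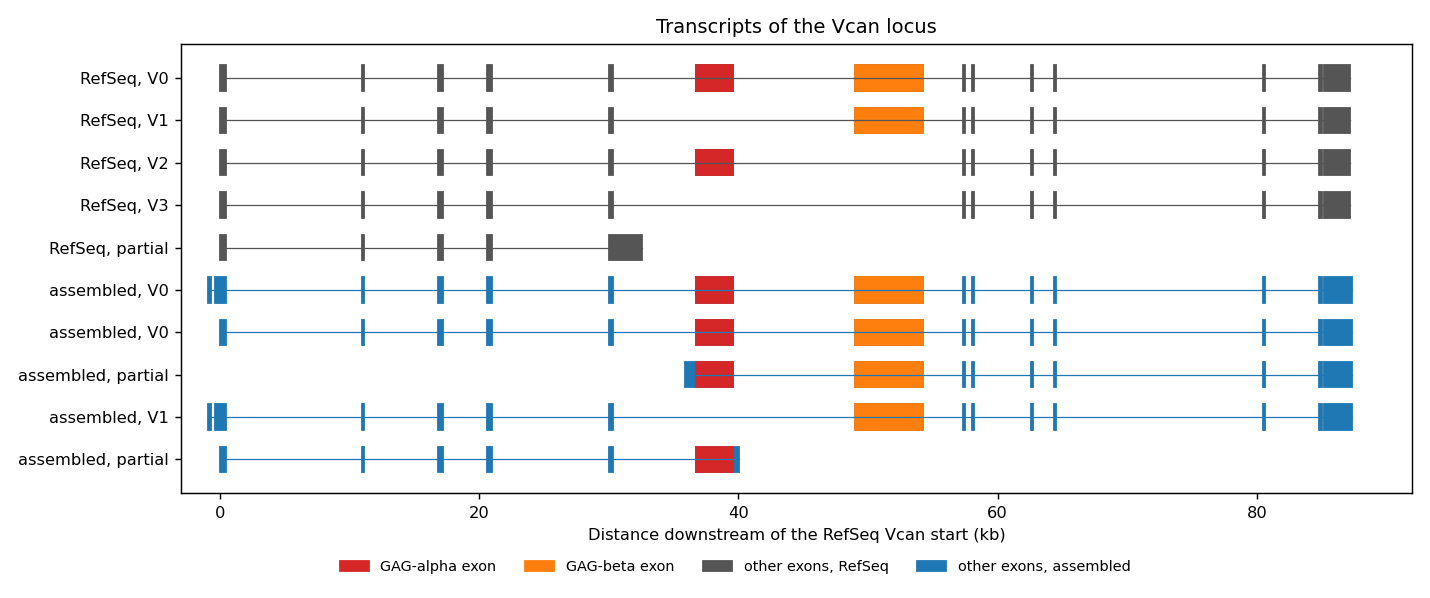
Exons (boxes) of the 10 transcripts of the Vcan locus, 5 from RefSeq and 5 assembled, against distance downstream of the RefSeq start in kb. GAG-alpha and GAG-beta are colored, and 2 assembled transcripts with the V0 structure and 1 with the V1 structure run to the 3′ end.

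Transcription around these neighbors was also recorded. Within 60 kb of the Hapln1 or the Vcan locus lay 14 assembled loci without a match in the reference, 8 of them in the interval between the genes, a set chosen after the values were seen. At E10.5 they ranged from 0.104 to 4.15 FPKM (median 1.62). The later libraries gave ranges from 0 to 0.841 (median 0.0380) and from 0 to 0.403 (median 0.0991). All but 1 of the 14 were highest at E10.5. Of the 12 that reached 1 FPKM, which they did at E10.5, 12 were lower by 1 or more at E13.5, where 28.1% of 12374 unmatched loci at 1 FPKM or more in some library were. Since these 12 passed through their E10.5 value, a lower later value was built into that count. The 28.1% covers loci that passed through any library, so it was not selected in the same way and is no measure for the 12. The E13.5 library had few unmatched loci in general, with 1865 at 1 FPKM or more, against 5733 at E10.5 and 8498 in the adult, and the part of this in the result was not tested.

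Strand differed along the region. In the interval, the 5 loci nearer to Hapln1 are on the plus strand, as Hapln1 is, and the first begins 5415 bp after its end. The 3 loci nearer to Vcan are on the minus strand, as Vcan is. The highest of the 14, at 4.15, 0.841 and 0.403 FPKM, starts 95 bp from the upstream Vcan start on the opposite strand (89743498 to 89744134). A spliced locus of up to 4 exons on the minus strand (89500410 to 89520012) ends its span 20623 bp before Hapln1 and was at 2.097 FPKM, then 0.0881 FPKM, and listed at 0 in the adult library.

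**Figure D4:**
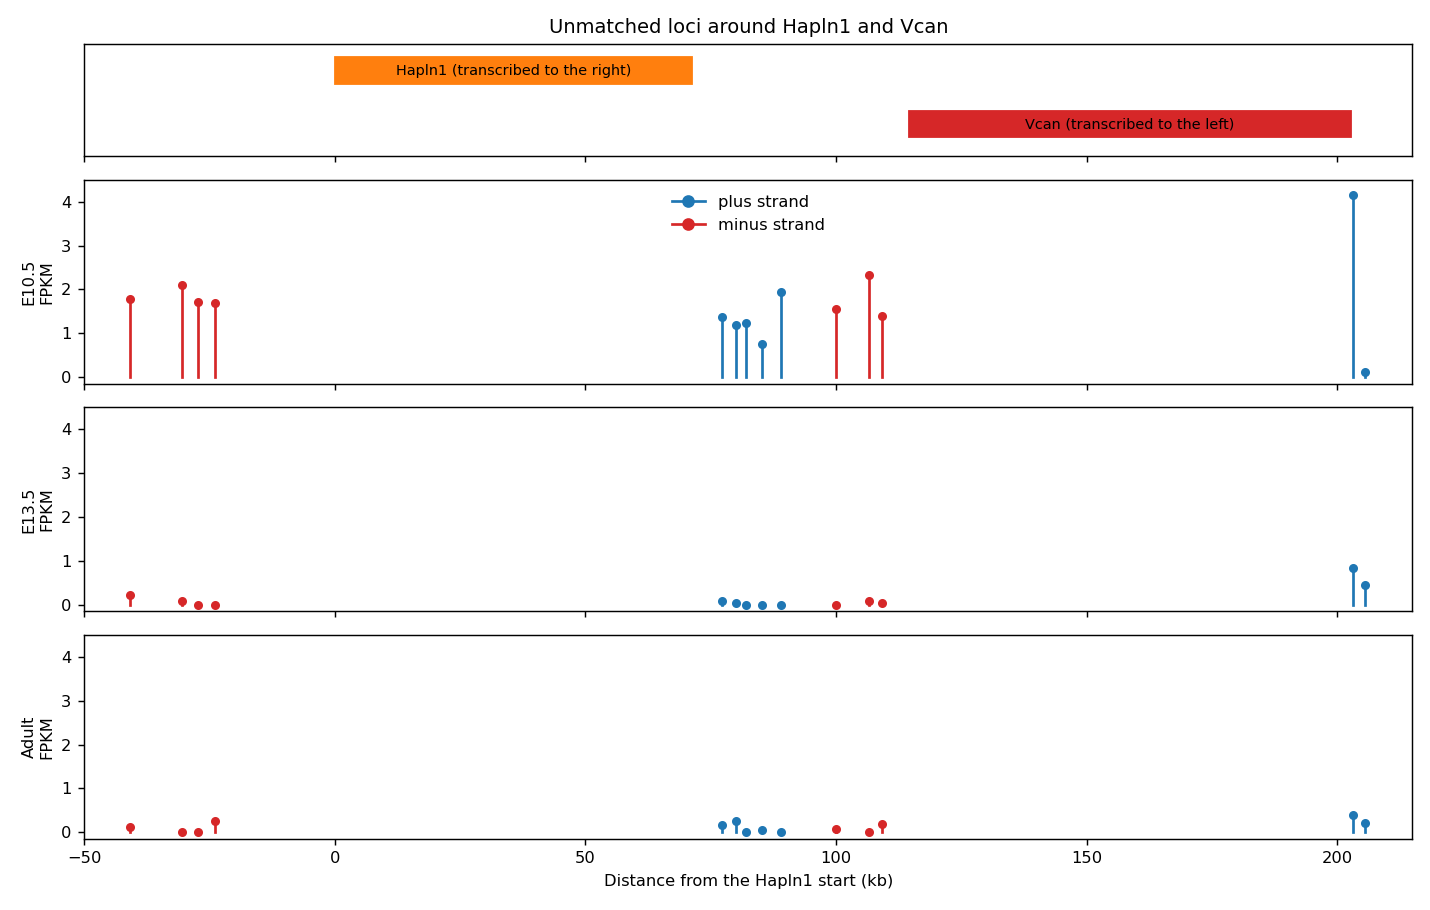
FPKM (vertical axes) of the 14 unmatched loci within 60 kb of Hapln1 or Vcan in each library, against distance from the Hapln1 start in kb, with both gene bodies drawn at the top. At E10.5 the loci reach 4.15 FPKM and in the other libraries none is above 0.841 FPKM.

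Cd44 (chromosome 2, 102811142 to 102901665), a cell surface receptor for hyaluronan, was at 18.8, 15.9 and 19.9 FPKM. The changes were -0.23 and 0.31 as deposited, and -0.64 and 1.153 with columns brought to 1 common sum, so how level Cd44 was depends on the scaling. Hyal2 (chromosome 9, 107567920 to 107572778), a membrane-anchored hyaluronidase, was at 20.7, 28.97 and 5.46 FPKM. The adult library was 3.80-fold below E10.5 and 5.31-fold below E13.5, with changes of -1.75 and -2.21. Hyal1, another hyaluronidase gene, whose locus is joined with a second gene, was at 3.24, 7.46 and 5.03 FPKM, with a change of 0.51 over the whole span.

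Over the whole span, the 3 protease genes of the set had changes of -0.59 (Adamts1), -0.49 (Adamts9) and 1.33 (Adamts5), beside -3.76 for Vcan. Adamts1 (chromosome 16, 85793805 to 85803115), a protease of the trabecular matrix in the embryonic ventricle, was at 28.1, 47.3 and 18.3 FPKM. Its level was highest at E13.5, with changes of 0.73 and -1.32, and the second did not pass 1 with median-of-ratios scaling or with columns brought to 1 common sum. Adamts9 (chromosome 6, 92772699 to 92943527), known for its part in heart and valve development, was at 16.6, 10.4 and 11.5 FPKM, with changes of -0.63 and 0.14. Adamts5 (chromosome 16, 85857177 to 85901655), known for the clearing of versican in valves, was at 2.23, 4.15 and 7.09 FPKM. Adamts5 stood higher at each step, and the adult was 3.19-fold above E10.5 (change 1.33). Adamts1 and Adamts5 are neighbors on the same strand with 54061 bp between them, and from E13.5 to the adult their changes had opposite signs, under all 4 alternatives of scaling and pseudocount too.

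Summed over the 3 protease genes, the level was 46.99, 61.8 and 36.9 FPKM. The ratio of this sum to Vcan was 0.189, 0.940 and 2.12. The ratio does not depend on scaling, whereas the direction of the sum between libraries can. Adamts1 took 59.8%, 76.5% and 49.6% of the sum at the 3 stages, Adamts9 35.4%, 16.8% and 31.2%, and Adamts5 4.74%, 6.72% and 19.2%. These are ratios of RNA and say nothing of protease activity, and with 1 library per stage they carry no error.

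**Figure D5:**
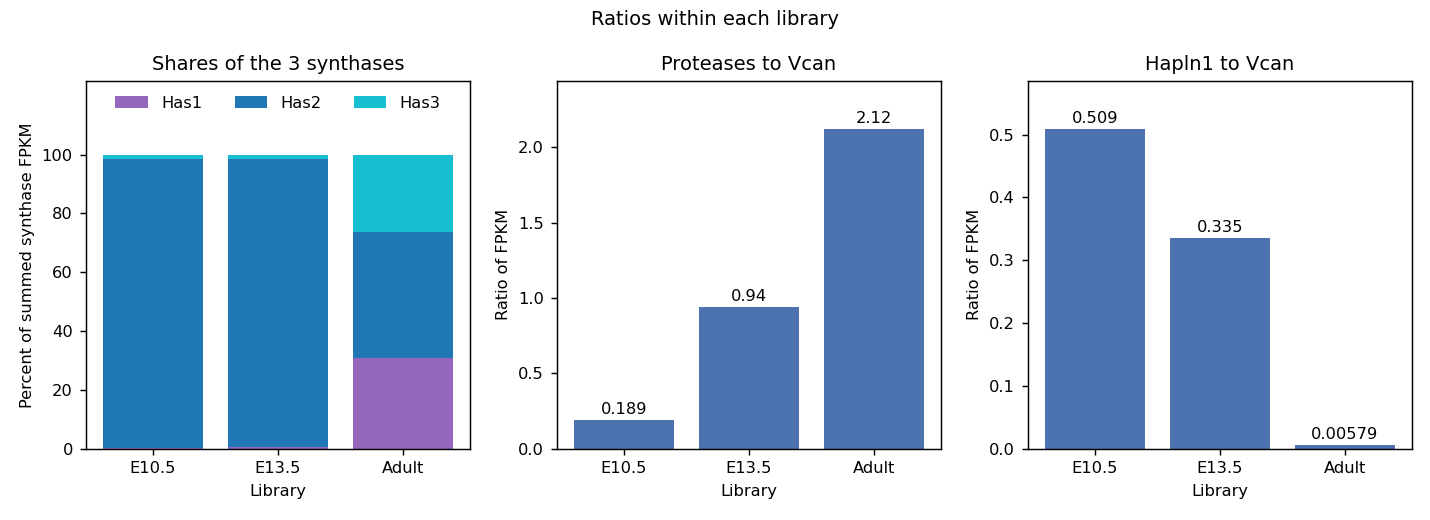
Left, percent of the summed FPKM of Has1, Has2 and Has3 held by each synthase in each library. Middle and right, the ratio of summed Adamts1, Adamts5 and Adamts9 to Vcan, from 0.189 to 2.12, and of Hapln1 to Vcan, from 0.509 to 0.00579, with bars starting at 0.

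The Adamts9 locus was longer than its RefSeq model. The RefSeq transcript in the annotation begins at 92901441 and has 30 exons, while 5 assembled transcripts begin up to 42086 bp upstream of it, with up to 40 exons. The outermost of these starts lies 7 bp from the Adamts9 start of RefSeq on GRCm38.p6 (92943534). The longer gene thus has a start in the later annotation, and the deposited FPKM covers the merged locus.

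Other genes of the pathway were taken from a list of 36 that supply, bind, take up or cut hyaluronan or cut versican. Of these, 22 reached 1 FPKM in some library. From E10.5 to E13.5, 4 of 22 were higher by 1 or more and 2 lower, beside 5.89% and 4.85% of all mRNA loci. Over the whole span, 3 were higher and 8 lower in the adult, with a median change of -0.07 beside -0.40 for all mRNA loci. Of these 3, Itih4 reached 1 FPKM in the adult alone, so its place in the count rests on its adult value. From E13.5 to the adult, 2 were higher and 7 lower. Among all mRNA loci 14.8% were higher and 27.3% lower over the whole span, and 13.0% and 32.1% after E13.5.

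Of the 4 listed genes that supply building blocks of the chain, 2 were lower by 1 or more in the adult than at E10.5. Ugdh, which makes the UDP-glucuronic acid that synthases use, was at 29.02, 32.6 and 7.41 FPKM, and followed the order of Has2. Gfpt1, which starts the synthesis of the other sugar, was at 25.8, 12.01 and 9.27 FPKM, already lower at E13.5 (change -1.04). The other two were not: Ugp2, which makes UDP-glucose, was at 116, 133 and 124 FPKM, and Uap1, which makes UDP-N-acetylglucosamine, at 18.9, 24.7 and 24.4 FPKM.

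Hyaluronan is also cut outside cells by Cemip and Cemip2. Cemip2 (Tmem2 in the annotation) was at 98.7, 62.4 and 5.75 FPKM, with a change of -3.88 over the whole span, and was above Hyal2 in both embryonic libraries. Cemip was at 2.64, 1.51 and 0.355 FPKM. Hmmr, a hyaluronan-binding protein that also works on the mitotic spindle, was at 26.1, 32.5 and 0.163 FPKM. Hapln3, the other link protein gene of the list that reached 1 FPKM, was at 2.83, 1.04 and 0.252 FPKM, in the same order as Hapln1.

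Among the matrix partners of versican, Fbln1, a cofactor of Adamts1, was at 73.5, 49.96 and 22.4 FPKM, and Fbn1 at 62.4, 26.5 and 27.1 FPKM. Fbln2 was highest at E13.5, at 25.8, 60.9 and 22.8 FPKM. The protease genes Adamts8 and Adamts15 shared that order, which Adamts5 and Adamts9 did not. Adamts8 was at 1.20, 7.65 and 0.338 FPKM and Adamts15 at 4.33, 10.4 and 2.80 FPKM. Tnfaip6, which binds hyaluronan and moves protein chains onto it, was also highest at E13.5, at 1.21, 3.47 and 1.60 FPKM. Itih4, a gene of the heavy chain family, was at 0.0162, 0.0335 and 1.74 FPKM. The other genes higher over the whole span were Lyve1, for a hyaluronan receptor, and Timp3, for a metalloprotease inhibitor. Lyve1 was at 2.55, 1.53 and 7.94 FPKM and Timp3 at 21.1, 30.8 and 43.6 FPKM.

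Chondroitin sulphate, the sugar that versican carries, needs its own enzymes. Of 21 listed genes 18 reached 1 FPKM, of which 1 was higher and 0 lower at E13.5 than at E10.5, beside 5.89% and 4.85% of mRNA loci. From there to the adult 11 were lower and 1 higher, beside 32.1% and 13.0%. With median-of-ratios scaling the 11 became 5, and the share of all mRNA loci was not recomputed for that scaling. Against E10.5, 5 of 18 were lower in the adult and 1 higher, beside 27.3% and 14.8% of mRNA loci, with a median change of -0.61. The other 12 passed the limit in neither direction, and the genes named next are those that passed it. Chsy1, a polymerase of the chain, was at 35.2, 37.0 and 6.24 FPKM, and its partner Chpf at 8.41, 12.9 and 1.85 FPKM. Chst12, a sulphotransferase, was at 8.52, 7.24 and 1.43 FPKM, and Dse, an epimerase of the chain, at 17.2, 17.9 and 6.05 FPKM. Chpf2, whose locus is joined with a second gene, was at 7.66, 9.96 and 2.81 FPKM. With only loci that name 1 gene, the chondroitin sulphate genes lower in the adult were 4 against E10.5 and 10 against E13.5. Chst15, which adds a further sulphate, was the 1 gene higher in the adult, at 1.97, 1.87 and 5.28 FPKM. B3galt6, of the linker that joins chain to core, was highest at E13.5 at 1.42, 4.10 and 1.16 FPKM.

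Loci with changes closest to those of 3 members were listed from all mRNA loci with 1 gene name, by Euclidean distance over both successive changes, in 3 libraries. Nearest to Has2 were Cdc25a (16.8, 17.7 and 1.73 FPKM), Cnn3, Amt, Tmem97 and Chtf18, at distances of 0.03 to 0.08. Nearest to Vcan were Peg10 (23.3, 5.39 and 0.510 FPKM), Fam70a, Mylpf, Frem1 and Rxfp1, at 0.22 to 0.34. In the adult these 5 were at 1.46 FPKM or less, where the scale understates a change, and Vcan was at 17.4 FPKM. In fold, their adult values lay further below E13.5 than that of Vcan did. Nearest to Hapln1 were Plagl1 (150.04, 41.8 and 0.897 FPKM), Hmga2, Fbn2, Col2a1 and Ttn, at 0.66 to 1.38. The Ttn locus is listed at 0 in the adult, which can be a failed estimate. Hapln1 thus had no close neighbor in these changes.

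Marker lists of 5 genes for each cell type, and of 4 genes taken as atrial, show what else differed between the libraries. Cardiomyocyte markers summed to 13232, 18656 and 18803 FPKM, led by Myl2, and were above 18 FPKM in every library. The sums hide opposite changes between the embryonic libraries, where 1 of the 5 was lower by 1 or more and 1 higher. Ryr2 was at 73.1, 18.8 and 281 FPKM, a change of -1.90 at E13.5, and Tnnt2 at 626, 1522 and 3148 FPKM. Endothelial and endocardial markers summed to 245, 156 and 151 FPKM. Over the whole span 2 of these 5 genes, Npr3 and Nfatc1, were lower by 1 or more and 0 were higher. Npr3, an endocardial gene, was at 86.1, 50.4 and 1.82 FPKM. Cdh5 was lowest at E13.5, at 50.2, 12.9 and 47.2 FPKM, and Pecam1 was highest in the adult, at 46.5, 47.6 and 72.8 FPKM. Cushion and valve markers summed to 19.2, 48.8 and 25.01 FPKM, led by Twist1 in the embryo and by Prrx1 in the adult, with 3 of 5 below 1 FPKM in the adult. Epicardial markers summed to 110, 108 and 16.5 FPKM, and macrophage markers to 2.99, 13.98 and 86.3. Fibroblast markers summed to 96.6, 220 and 403 FPKM, where the adult sum was mostly Dcn (49.5, 75.9 and 351 FPKM), and the median change of the 5 genes from E13.5 to the adult was -0.998. The genes listed as atrial (Myl7, Myl4, Sln and Myl1), summing to 4666, 4454 and 15.4 FPKM, also set the adult apart. Myl7 led this list at E10.5 and Myl4 at E13.5, while Myl1 held 12.3 FPKM of the adult sum. Whether these genes mark atrial tissue in embryonic ventricles was not tested. Erythroid markers, summing to 6758, 16348.5 and 24.5 FPKM, set the adult apart too. The embryonic erythroid sums were led by the embryonic globin gene Hbb-y, while Alas2 was at 18.2, 34.1 and 19.6 FPKM. Liver markers were at 8.55, 22.7 and 1.52 FPKM in sum. The part of these shifts in the results was not tested, and in bulk tissue fewer cells of a type cannot be told apart from less RNA per cell. Between E10.5 and E13.5, where Vcan and Hapln1 were lower, cushion and fibroblast markers were higher in sum and epicardial markers were near even. Endothelial markers were lower in sum, with 2 of 5 lower by 1 or more.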

How the data were processed

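Total RNA of heart ventricles was sequenced (paired-end, stranded kit). Per the study's text and the labels, the authors used TopHat2 for mapping (mm10) and Cufflinks for assembly, both guided by known transcripts and free of them. Versions and options are not given in the sources used here. The deposited FPKM values give 1 number per merged locus and library. The deposited annotation gives exon coordinates.

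Genes were matched to loci by gene name, and list genes also by older symbols, through loci with a transcript equal to a RefSeq mRNA (20117 loci). The 10 genes, lists and comparisons were chosen with earlier results of these data known. Named genes were the 10 members, list genes past a change of 1 (at most the 8 largest per list, from E10.5 to E13.5 or to the adult) and the 5 nearest patterns of 3 members. Some markers and other list genes were named beside these.

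Depth was approximated from unspliced loci of 500 nt or more, where the most frequent low FPKM times kb was 0.07, 0.04 and 0.0735, or about 14.3, 25 and 13.6 fragments per FPKM and kb, in order of age. Poisson intervals use the mean RefSeq transcript length. Corrections made by the assembler may blur these steps. An exact 0 can be a failed estimate. Promoters of 7 members (all but Has2, Has3 and Adamts5) were matched in the RefSeq table, with 5 short sequences searched on both strands. Alternatives covered pseudocount, scaling, threshold, filter and joined loci. Calculations used Python 3.11.15, numpy 2.4.6, pandas 2.3.3, scipy 1.17.1 and matplotlib 3.10.9.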

Additional observations from a re-analysis of the deposited data

How the results depend on the processing

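No paired analysis was possible because no stage has more than 1 library, and for the same reason none was left out. The alternatives were chosen with earlier results known, and the windows around Hapln1 and Vcan after seeing the data. Among the 10 genes, depth limits Has1, Has3 and the adult value of Hapln1. No change of a gene past the limit of 1 turned its sign. Of 30 changes of the 10 genes, 2 changed sign in any alternative, those of Has2 and Has3 between the embryonic libraries. Shares of Has2 and protease ratios did not move with scaling. Windows of 30 and 120 kb around Hapln1 and Vcan held nearly as many loci (13 and 14), and since the loci passed through their E10.5 value, their lower share there says nothing of stability.

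Counts past the limit moved as follows, and the cause was not tested beyond what each setting changes by construction. Only counts that changed by more than 1.5-fold are listed. Left out, for example, are members lower at E13.5, which were 3 with columns brought to 1 common sum. The shares of all mRNA loci given above belong to the deposited scaling and a pseudocount of 1. They were not recomputed for other scalings or pseudocounts, so counts under those settings are not results about these genes. With a limit of 2, members lower were 1 (E13.5 against E10.5) and 3 (adult against E13.5), and members higher from E10.5 to the adult 0. With that limit, pathway genes were 0 higher and 0 lower at E13.5 against E10.5, 0 higher and 3 lower in the adult against E13.5, and 0 higher and 2 lower in the adult against E10.5. Chondroitin sulphate genes with that limit were 0 higher in each comparison, and 2 and 1 lower in the adult against E13.5 and E10.5. With a pseudocount of 0.1, members higher were 1 (adult against E13.5) and 2 (adult against E10.5), and chondroitin genes higher at E13.5 were 2.

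With median-of-ratios factors (1.07, 1.19 and 0.804), members higher in the adult were 2 against each embryonic stage. Pathway genes higher were 2 at E13.5 against E10.5 and 4 in the adult against E13.5. Chondroitin genes were 0 higher at E13.5, 2 higher and 5 lower in the adult against E13.5, and 2 higher against E10.5. Rescaled without globin and mitochondrial loci, members higher were 1 and 2 in the adult against E13.5 and E10.5, pathway genes higher at E13.5 were 1 and chondroitin genes 0. With columns brought to 1 common sum, members higher in the adult against E13.5 and E10.5 were 3 and 2. Pathway genes were then 1 higher and 5 lower at E13.5, and 4 higher and 4 lower in the adult against E13.5. Chondroitin genes were 0 higher and 1 lower at E13.5, 3 higher and 3 lower in the adult against E13.5, and 3 higher in the adult against E10.5.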

Other observations

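Loci on the opposite strand were examined at the start of each of the 10 genes, within 3000 bp of any start of the gene in the annotation. Beside the locus at the upstream Vcan start, a second locus opposite to Vcan (chromosome 13, 89745601 to 89746781, 2198 bp away) was at 0.104, 0.446 and 0.201 FPKM, in another order than Vcan. A further 2 unspliced loci lay opposite to Adamts5. The first starts 801 bp from an Adamts5 start (chromosome 16, 85902456 to 85903113) and was at 0.105, 0.735 and 1.16 FPKM, in order of age. The second, 1611 bp away, was listed at 0 at E10.5 and was then at 0.513 and 1.71 FPKM. Both stood in the order of Adamts5, which was at 2.23, 4.15 and 7.09 FPKM.

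Opposite to Adamts9, the locus of the non-coding RNA 9530026P05Rik, with transcripts of up to 6 exons, starts 2938 bp from an assembled Adamts9 start and overlaps the gene without sharing exon bases. Its levels were 1.95, 2.08 and 10.4 FPKM, with a change of 1.95 over the whole span, beside 16.6, 10.4 and 11.5 FPKM for Adamts9. Has2as, antisense to Has2 with 182 shared exon bases, starts 4602 bp away, outside the limit of 3000 bp. Its level was 0.131 and 0.139 FPKM in the embryonic libraries, and it was listed at 0 in the adult. Opposite loci that start within 3000 bp of Has1 and Hyal2 were below 1 FPKM in every library. The overlapping locus that includes Ncrna00085 starts farther from Has1 and was at 2.05, 2.64 and 1.93 FPKM. None of these differences has a replicate check.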
